A study of Mus musculus with 9 samples.

Results

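The interferon regulatory factor (IRF) genes were described in plasmacytoid dendritic cells (pDCs), dendritic cells specialised in type I IFN release once their endosomal TLRs meet nucleic acids. The 8 members described, *Irf1*, *Irf2*, *Irf3*, *Irf4*, *Irf5*, *Irf7*, *Irf8* and *Irf9*, were taken from the 52550 rows of the table by symbol alone, and all 8 had reads. The study sorted CD11c-intermediate SiglecH+ PDCA1+ pDCs from the spleens of young adult C57BL/6 mice of 3 *Ncf1* genotypes, G/G (WT), G/A (heterozygous knockin) and A/A (homozygous knockin). The cells were cultured with R848, a TLR7/-8 ligand, for 12 hours before RNA-Seq. The knockin, made with CRISPR/Cas9 and carried in the germ line, changes arginine to histidine in NCF1, a subunit of the NADPH oxidase NOX2. There were 3 samples for each genotype, 9 in all, and the values given are those of A/A replicate 1. With the other 8 libraries not analysed here, no genotypes were compared and replicate error is unknown. Whether the 3 replicates came from separate animals is not stated in the sources used here. Every sample was R848 stimulated, and no unstimulated cells were part of the experiment.

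The library held 31408298 reads over 17664 genes. Reads here are whole numbers inferred from the deposited values, whose unit is not given, and all intervals rest on that inference. CPM is a gene's reads per 1000000 reads of that total, and its 95% CI is a Wilson interval. Levels of different genes were compared as reads per kilobase of exon, where the length is the union of all annotated exons of a gene. Ratios of 2 genes carry an exact binomial 95% interval. The sources used here describe no molecular identifiers, so reads copied by PCR are not independent molecules, and all intervals cover counting error only. In bulk RNA a low level in every cell and a high level in few cells cannot be told apart. The sorted cell type was checked first. All 11 pDC markers had reads, with *Siglech* at 374 CPM and *Bst2* (PDCA1) at 1657 CPM, both used in the sort, and *Tcf4*, the lineage-defining transcription factor, at 358 CPM. The 11 ran from *Klk1* at 46.2 CPM to *Spib* at 2288 CPM, and 7 were at or above percentile 90 per kilobase of exon. Below it were *Runx2* at percentile 87.3, *Pacsin1* at 81.9, *Tcf4* at 81.4 and *Bcl11a* at 71.9. Among genes of activated DCs and macrophages, *Ccl22* had 1347 CPM, *Fscn1* 428 CPM and *Cd68* 298 CPM. The T cell markers *Cd3e*, *Cd3d*, *Cd3g* and *Bcl11b* and the NK cell markers *Ncr1* and *Klrb1c* were all listed at 0, for which 3 reads, or 0.0955 CPM, are taken as the limit in place of a Wilson interval, whose upper bound is 0.122 CPM. The study's methods state that female mice were used, whereas the Y-linked genes *Ddx3y*, *Eif2s3y* and *Kdm5d* had 102, 86.1 and 27.0 CPM and *Xist* was listed at 0. *Ncf1* itself had 1079 CPM, a value that does not show which allele was read.

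IRFs are transcription factors that share an N-terminal DNA-binding domain and recognise repeats of GAAA in the IFN-stimulated response element (ISRE). Some members carry signals from pattern recognition receptors to the IFN genes, *Irf9* works downstream of the IFN receptor, and others steer the development of myeloid and lymphoid cells. pDCs are known for a constitutively high store of IRF7, which is activated through MyD88, and for their need of IRF8.

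*Irf7* and *Irf8* dominated the family. *Irf7* had 105279 reads and *Irf8* had 93189, against 11482 for *Irf1*, 11411 for *Irf5*, 10622 for *Irf9*, 2799 for *Irf2*, 1222 for *Irf3* and 695 for *Irf4*. By reads these are described here as a high pair, a middle group of 3 genes and a low group of 3 genes. The groups are a description of reads, and the steps between genes changed with the gene length used. Together they held 7536 CPM (95% CI, 7506 to 7566), or 0.754% of all reads. Of the family's reads, 83.8% lay on *Irf7* and *Irf8*, 14.2% on *Irf1*, *Irf5* and *Irf9*, and 1.99% on *Irf2*, *Irf3* and *Irf4*.

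**Figure D1:**
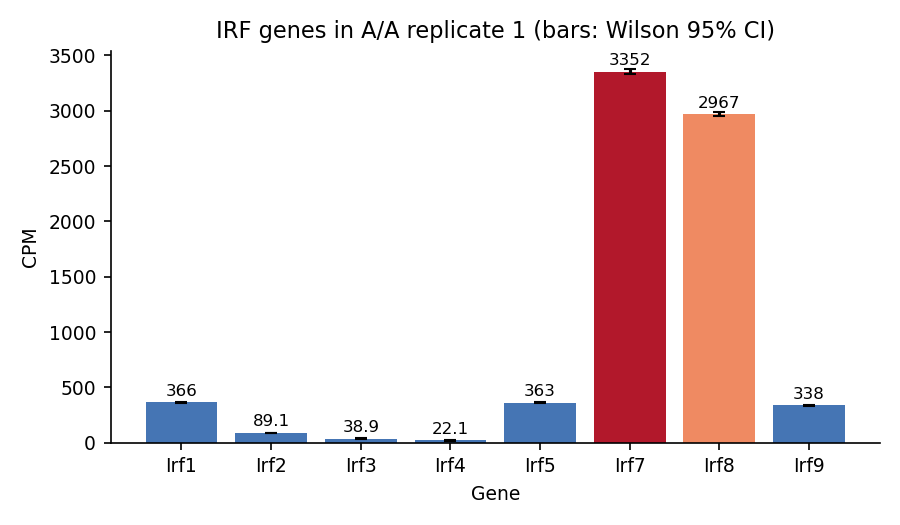
CPM (y axis) of each IRF gene (x axis) in A/A replicate 1, with Wilson 95% confidence intervals as error bars. *Irf7* (3352 CPM) and *Irf8* (2967 CPM) stand far above *Irf1*, *Irf5* and *Irf9*, which lie between 338 and 366 CPM.

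Compared with the whole library, 5 of the 8 members were highly expressed and the other members lay lower. The 8 members with reads had a median of 351 CPM, while the median over all genes with reads was 6.34 CPM and over protein-coding genes with reads 17.8 CPM. Their median percentile among genes with reads was 97.3. At or above percentile 90 were 5 of the 8 members, *Irf1*, *Irf5*, *Irf7*, *Irf8* and *Irf9*, where 10.0% of all genes with reads lie by construction. *Irf2* was just outside, at percentile 88.6 with 89.1 CPM, and the threshold itself lay at 101 CPM. *Irf3* was at percentile 77.0 and *Irf4* at 67.7, or 67.6 and 54.8 among protein-coding genes with reads. Per kilobase of exon the same 5 genes were at or above percentile 90, and the median percentile was 96.0, with *Irf2* at 80.4, *Irf3* at 79.6 and *Irf4* at 64.7. In that measure *Irf7* was rank 52 and *Irf8* rank 118 of the 17632 genes that could be ranked. By reads alone they were ranks 17 and 26.

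**Figure D2:**
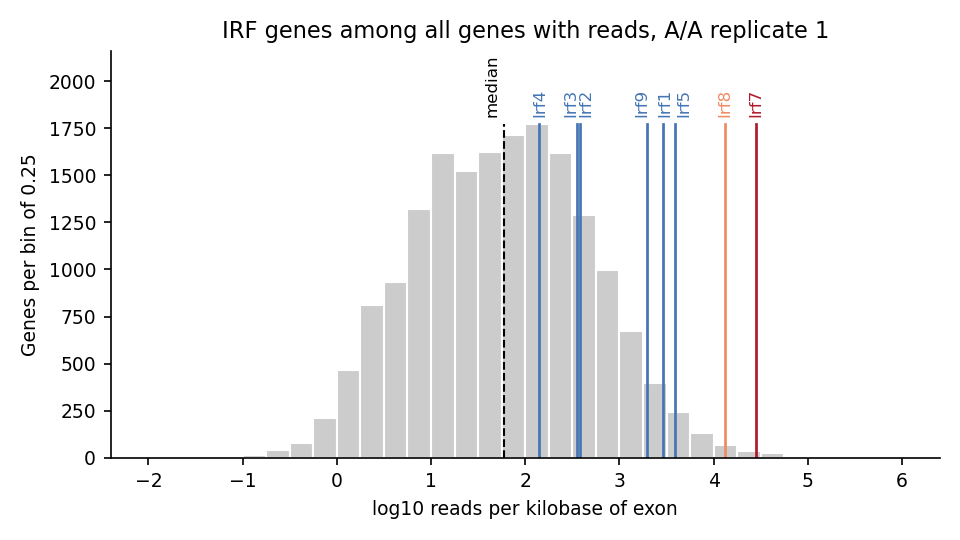
Number of genes (y axis) in bins of log10 reads per kilobase of exon (x axis) for the 17632 genes with reads and an exon length in A/A replicate 1. Vertical lines mark the IRF genes and the dashed line the median of all genes with reads (59.6 reads per kilobase). All 8 members lie above that median, from *Irf4* at 142 to *Irf7* at 27881 reads per kilobase.

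Per kilobase of exon the order was *Irf7* (27881 reads), *Irf8* (13209), *Irf5* (3928), *Irf1* (2888), *Irf9* (1972), *Irf2* (378), *Irf3* (355) and *Irf4* (142). The first and last differed 197-fold, and 323-fold with the longest protein-coding transcripts. Over the union of exons the widest step was between *Irf9* and *Irf2*, at 5.21-fold (95% CI, 5.00 to 5.43), followed by that between *Irf8* and *Irf5*, at 3.36-fold (95% CI, 3.30 to 3.43). *Irf2* and *Irf3* were the only neighbours in this order that did not differ beyond counting error, with a ratio of 1.07 (95% CI, 0.996 to 1.14). The length used mattered for the places of some genes. For *Irf7* the union was 3776 bp, the whole span of the gene, against 2237 bp for its longest protein-coding transcript. With the longest protein-coding transcript as the length, the ratio of *Irf7* to *Irf8* was 1.44 (95% CI, 1.43 to 1.45) in place of 2.11 (95% CI, 2.09 to 2.13). *Irf1* then stood above *Irf5*, with a ratio of *Irf5* to *Irf1* of 0.948 (95% CI, 0.923 to 0.973) in place of 1.36 (95% CI, 1.33 to 1.40), and *Irf2* stood above *Irf3* by 1.86-fold (95% CI, 1.74 to 1.99). The widest step then lay below *Irf8*, at 6.09-fold between *Irf8* and *Irf1* (95% CI, 5.98 to 6.21), while that between *Irf9* and *Irf2* was 3.20-fold (95% CI, 3.07 to 3.34). The step between *Irf3* and *Irf4* was then the wider of the lower steps, at 4.12-fold (95% CI, 3.75 to 4.53), against 2.50-fold over the union of exons (95% CI, 2.28 to 2.75). With the shortest coding transcript *Irf8* stood above *Irf7*, with a ratio of *Irf7* to *Irf8* of 0.722 (95% CI, 0.716 to 0.728), and *Irf2* over *Irf3* (2.40-fold) was a wider step than *Irf9* over *Irf2* (1.96-fold). These shortest transcripts are annotated at only 480 bp for *Irf8* and 751 bp for *Irf7*, against 2847 and 2237 bp for the longest protein-coding ones. Under every other length, and without length correction, *Irf7* stood above *Irf8*. The widest step of all also lay between the high pair and the middle group with the longest transcript, with the shortest coding transcript and without length correction.

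**Figure D3:**
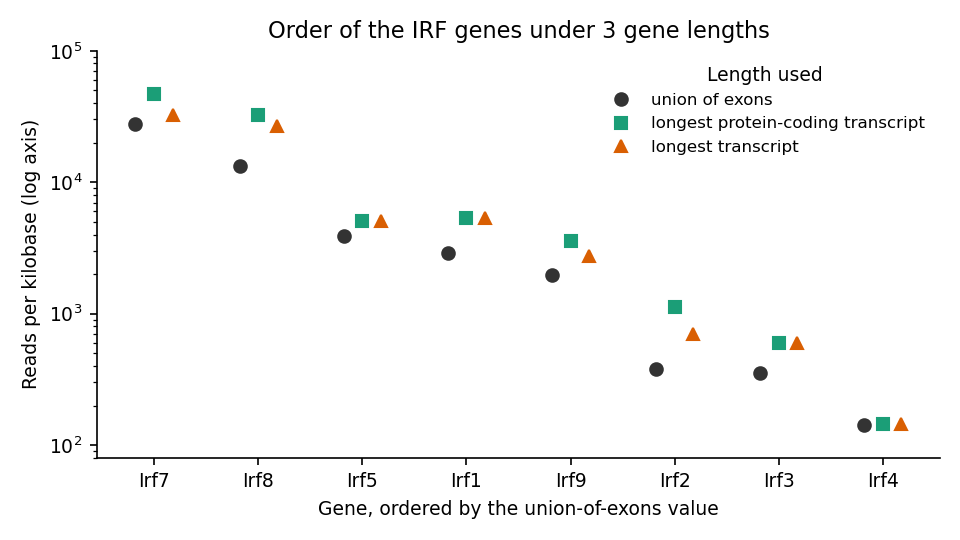
Reads per kilobase (y axis, log axis) of the 8 IRF genes with reads (x axis) in A/A replicate 1, with the length taken as the union of exons, the longest protein-coding transcript or the longest transcript. *Irf7* and *Irf8* are the highest and *Irf4* the lowest under all 3 lengths, while *Irf1* and *Irf5* change places.

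The sequence before the start sites was searched for the motifs of the factors that are known to drive IRF genes. The windows were RefSeq promoters of GRCm38.p6, 250 bases before to 50 after each start, which matched all 8 members with reads (11 windows). The letters searched, on both strands, were GAAA, any 2 bases and GAAA for the ISRE core, TTCNNNGAA for the gamma-activated site (GAS) bound by STAT dimers, and the κB site by its name. The ISRE core was in the window of *Irf2* alone. It was in 3.44% of all promoters and 3.99% of all genes with such windows. The GAS letters were in windows of *Irf1*, *Irf2* and *Irf8*, in 8.30% of all promoters and in 9.55% of all genes. A κB match was in windows of *Irf1* and *Irf2*, in 8.46% of all promoters and in 9.55% of all genes. The stretches that hold these matches upstream of *Irf1*, *Irf2* and *Irf8* are shown so that the letters can be read in place, with each match in capitals. All are on the plus strand.
*Irf1*, GAS, chr11:53769909-53769947: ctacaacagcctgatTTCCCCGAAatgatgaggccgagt
*Irf1*, κB, chr11:53769986-53770013: ggccgagtccgggccGGGGAATCCCgct
*Irf2*, ISRE core, chr8:46739495-46739528: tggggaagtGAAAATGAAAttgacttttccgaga
*Irf2*, GAS, chr8:46739506-46739544: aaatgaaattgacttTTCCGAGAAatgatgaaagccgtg
*Irf2*, κB, chr8:46739713-46739744: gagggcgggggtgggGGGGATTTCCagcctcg
*Irf8*, GAS, chr8:120736172-120736210: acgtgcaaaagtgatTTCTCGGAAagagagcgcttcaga
*Irf8*, second GAS, chr8:120736190-120736228: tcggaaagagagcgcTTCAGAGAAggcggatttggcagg
The *Irf1* GAS match began 90 bases before the start and the *Irf1* κB match 13 bases before it. In *Irf2* the ISRE core began 241 bases, the GAS match 224 bases and the κB match 17 bases before the start, and none of the 3 overlapped another. The 2 GAS matches of *Irf8* began 171 and 153 bases before the start. The windows of *Irf3*, *Irf4*, *Irf5*, *Irf7* and *Irf9* held none of these letters. The members with and without a match did not separate by level: *Irf7*, the highest member over the union of exons, had none, and *Irf2*, in the low group, had all 3. A match of letters is a description and not a bound site.

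*Irf7* (ENSMUSG00000025498.15, chromosome 7, 141262706 to 141266481, minus strand of GRCm38) encodes the factor that switches on the *Ifna* genes. Its level was 3352 CPM (95% CI, 3332 to 3372) and 27881 reads per kilobase of exon, at percentile 99.7 in that measure. Annotated for *Irf7* are 13 transcripts, of which 4 are protein-coding. *Irf3* (ENSMUSG00000003184.15, chromosome 7, 44997648 to 45002848, plus strand), its closest partner in IFN induction, is made constitutively by most cells and carries signals from the cytosolic sensors. *Irf3* had 38.9 CPM (95% CI, 36.8 to 41.2) and 355 reads per kilobase. Per kilobase *Irf7* was 78.5-fold higher than *Irf3* (95% CI, 74.2 to 83.2), and the ratio was 78.2 with the longest protein-coding transcripts. The ratio was lower with the shortest coding transcripts, at 140185 against 3312 reads per kilobase. It was also lower with the longest transcripts, at 32493.5 against 602 reads per kilobase. *Irf5* (ENSMUSG00000029771.12, chromosome 6, 29526625 to 29541871, plus strand), which MyD88 also engages and which drives proinflammatory cytokines, had 363 CPM (95% CI, 357 to 370). At 3928 reads per kilobase it lay 11.1-fold above *Irf3* (95% CI, 10.4 to 11.7) and 7.10-fold below *Irf7* (95% CI, 6.96 to 7.24). The ratio of *Irf7* to *Irf5* was 4.30 with the shortest coding transcripts (95% CI, 4.22 to 4.38). With the longest protein-coding transcripts it was 9.24 (95% CI, 9.07 to 9.42). The 3 IRFs that carry signals from receptors to cytokine genes were thus separated by steps far wider than their counting error.

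The genes of the route from TLR7 and TLR9 to these factors were taken from a list of 15. All 15 had reads, with a median of 364 reads per kilobase, and 6 were at or above percentile 90 per kilobase. *Unc93b1*, the chaperone that brings the endosomal TLRs out of the endoplasmic reticulum, was the highest at 20564 reads per kilobase. The receptor *Tlr7* had 1579 and *Tlr9* 355 reads per kilobase. These genes stand at the head of the route, and they spanned a wide range. The adaptor *Myd88* had 4160 reads per kilobase. Its partners in the complex were lower, with 278 for the kinase *Irak4*, 210 for *Irak1* and 364 for the ubiquitin ligase *Traf6*. *Chuk* (IKKα), a kinase of IRF7 in pDCs, had 772 reads per kilobase, and *Irf7* was 36.1-fold higher than it (95% CI, 35.0 to 37.3). *Slc15a4* and *5430427O19Rik* (Tasl), the endolysosomal transporter and adaptor through which IRF5 is recruited, had 2335 and 1059 reads per kilobase. *Ikbkb* (IKKβ), the kinase of IRF5, had 327, and 1567 over its longest protein-coding transcript. Of the 2 kinases that phosphorylate IRF3, *Tbk1* had 1192 reads per kilobase and *Ikbke* 21.1, the lowest value of this list, and they differed 56.6-fold (95% CI, 48.9 to 65.8), or 26.4-fold with the longest protein-coding transcripts (95% CI, 22.8 to 30.7). *Tbk1* was 3.36-fold above its substrate *Irf3* (95% CI, 3.15 to 3.58).

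The cytosolic and TRIF route to IRF3 was also expressed. All 6 listed genes had reads, with a median of 1222 reads per kilobase, and 3 were at or above percentile 90. The DNA-sensing adaptor *Tmem173* (STING) had 5025 reads per kilobase, the RNA sensors *Ifih1* (MDA5) and *Ddx58* (RIG-I) 3295 and 1999. *Mavs*, the adaptor of both RNA sensors, had 210, *Ticam1* (TRIF) 446 and *Mb21d1* (cGAS) 112. *Irf3* lay above *Mavs* over the union of exons and over the longest protein-coding transcripts. Its place against *Ticam1* depended on the length, with 355 against 446 reads per kilobase over the union of exons and 602 against 446 over the longest protein-coding transcripts.

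*Irf8* (ENSMUSG00000041515.9, chromosome 8, 120736358 to 120756694, plus strand) is required for dendritic cell development and is held at a high level in pDCs. It had 2967 CPM (95% CI, 2948 to 2986) and 13209 reads per kilobase. *Irf4* (ENSMUSG00000021356.10, chromosome 13, 30749226 to 30766976, plus strand), its closest relative, acts in plasma cells and in a subset of conventional DCs, and had 22.1 CPM (95% CI, 20.5 to 23.8). Per kilobase *Irf8* was 93.2-fold higher than *Irf4* (95% CI, 86.5 to 100.5), and 224-fold with the longest protein-coding transcripts. IRF4 and IRF8 bind DNA weakly alone and do so with ETS or AP-1 partners. Of the ETS partners, *Spib*, typical of pDCs, had 25062 reads per kilobase and *Spi1* (PU.1) 6256. The order of *Spib* and *Irf8* depended on the length, with *Spib* at 1.90 times *Irf8* over the union of exons (95% CI, 1.88 to 1.92) and 0.788 times over the longest protein-coding transcripts (95% CI, 0.780 to 0.795). Of the AP-1 partners, *Batf* had 1509 reads per kilobase, *Batf2* 64.6 and *Batf3* 30.1. *Batf3* is needed for cross-presenting conventional DCs, and *Batf* was 50.2-fold above it (95% CI, 37.7 to 68.3). *Spi1* was 44.1-fold (95% CI, 40.9 to 47.7) and *Batf* 10.6-fold (95% CI, 9.77 to 11.6) above *Irf4*. *Irf4* was thus the low side of every pair formed with its partners here, except *Batf2* and *Batf3*, which were lower still.

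Since *Irf4* and *Irf8* are also genes of conventional DCs and B lineage cells, the markers of those cells are given beside them. Of 7 conventional DC markers 6 had reads, 1958 CPM in all, most of it on *Ccl22* (1347 CPM) and *Fscn1* (428 CPM), genes of activated DCs. *Zbtb46* had 106 CPM and *Clec9a* 73.9, while *Xcr1* had 1.72, *Clec10a* 2.36 and *Cd209a* was listed at 0. The conventional DC markers were thus not low throughout. By CPM *Zbtb46* was at percentile 90.5 and *Clec9a* at 86.6 among genes with reads, while *Xcr1* was at 36.1 and *Clec10a* at 39.3. Of 5 B cell and plasma cell markers 3 had reads, 34.6 CPM in all. *Sdc1* made up 29.2 of it, *Cd79a* and *Ms4a1* had 2.32 and 3.06 CPM, and *Pax5* and *Jchain* were listed at 0. The B cell markers were low. Of the plasma cell genes, *Jchain* had no reads, while *Sdc1*, at percentile 72.4 among genes with reads, lay above *Irf4* (22.1 CPM). Of macrophage markers all 5 had reads, 383 CPM in all, with *Cd68* the highest at 298 CPM, followed by *Csf1r* at 49.0, *Adgre1* at 25.1, *C1qa* at 9.52 and *Mertk* at 1.72. Of 4 neutrophil markers *S100a8* (14.7 CPM) and *S100a9* (9.62 CPM) had reads, and *Ly6g* and *Elane* were listed at 0. Of 3 erythroid markers *Hba-a1* had 2.83 CPM and the others were listed at 0. The part of such cells in the levels of IRF genes was not tested.

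*Irf1* (ENSMUSG00000018899.16, chromosome 11, 53770014 to 53778374, plus strand) encodes an activator induced by IFN-γ and by TLR signals. *Irf2* (ENSMUSG00000031627.9, chromosome 8, 46739732 to 46847458, plus strand) encodes its relative, which competes for the same sites. *Irf1* had 366 CPM (95% CI, 359 to 372) and *Irf2* 89.1 CPM (95% CI, 85.9 to 92.5). Per kilobase *Irf1* was 7.63-fold higher (95% CI, 7.32 to 7.96), and 4.79-fold with the longest protein-coding transcripts. The gap was narrower still with the shortest coding transcripts, at 22295 reads per kilobase for *Irf1* against 7952 for *Irf2*. *Irf2* has the longest span of the 8 genes, 107727 bp, and 11 annotated transcripts, 6 of them protein-coding. Of the 3 corepressors that bind IRF2 or resemble those that do, *Irf2bp2* had 384 reads per kilobase, *Irf2bp1* 218 and *Irf2bpl* 17.8, and 0 of the 3 were at or above percentile 90. *Irf2* and *Irf2bp2* did not differ beyond counting error over the union of exons (ratio, 0.986; 95% CI, 0.931 to 1.05), but *Irf2* was 2.92-fold higher with the longest protein-coding transcripts. For *Irf2bp2*, 20.5% of its exon bases were shared with genes on the other strand.

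*Irf9* (ENSMUSG00000002325.14, chromosome 14, 55603571 to 55610030, plus strand) is the DNA-binding subunit of ISGF3, a complex with STAT2 that forms after type I IFN binds its receptor. It had 338 CPM (95% CI, 332 to 345) and 1972 reads per kilobase. *Irf9* was lower than its partner. *Stat2* had 5946 reads per kilobase, 3.01-fold above *Irf9* (95% CI, 2.95 to 3.08), and 2.23-fold with the longest protein-coding transcripts. In all, 8 DNA-binding partners and coactivators were listed, among them *Stat2* and the ETS and AP-1 factors above. All 8 had reads and 4 were at or above percentile 90 per kilobase. The coactivators *Crebbp* (CBP) and *Ep300* had 58.6 and 78.9 reads per kilobase.

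The genes that IRFs are known to act on were read in the same library, in lists that were set by the factor. All 6 ISGF3 targets were at or above percentile 90 per kilobase, from *Mx1* at 7425 to *Usp18* at 32576 reads per kilobase. The others were *Isg15*, *Oas1a*, *Ifit1* and *Rsad2*. All 5 targets of IRF1 were also at or above it, with the guanylate-binding protein gene *Gbp2* at 20875 and *Tap1*, *Psmb9*, *Cd274* (PD-L1) and *Nlrc5*, genes of antigen presentation and its control, between 2192 and 5600. Of the 4 targets of IRF3 and IRF7, the chemokine genes *Ccl5* and *Cxcl10* had 88052 and 28878 reads per kilobase, while *Ifnb1* had 572 and *Ifna4* 278. Of 3 targets of IRF5, *Il12b* had 4715, *Tnf* 1505 and *Il6* 540 reads per kilobase, and 2 were at or above percentile 90. *Ccr7* and *Cst3*, from the 4 targets of IRF4 and IRF8, had 58572 and 46829, and *Prdm1* (Blimp-1), a target of IRF4, had 91.2. Of 2 ubiquitin ligases that act on IRFs, *Rbck1* had 1974 reads per kilobase and *Trim21* 110. These lists were chosen with earlier values of this library known, and levels in a single library do not show that a factor acted on a gene.

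**Figure D4:**
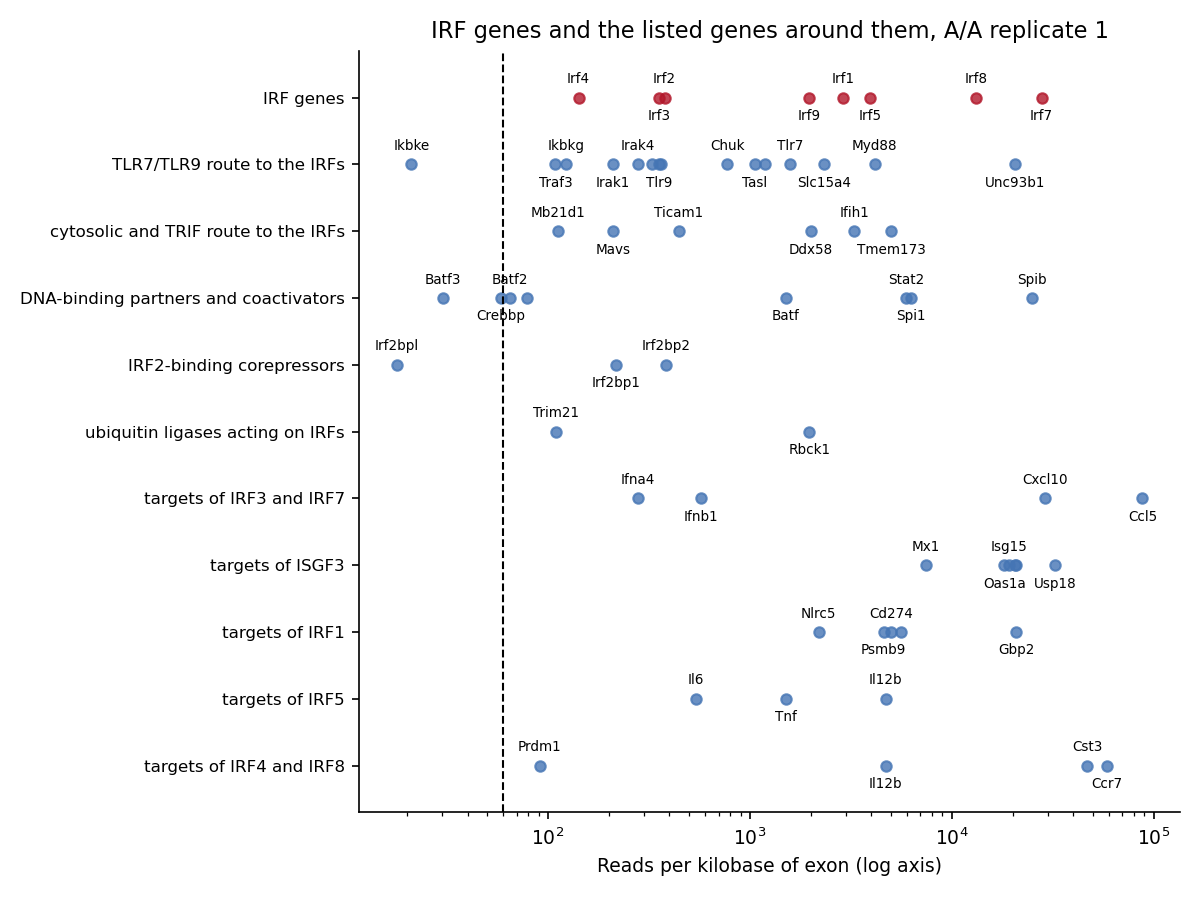
Reads per kilobase of exon (x axis, log axis) of the IRF genes (red) and of listed genes of their signalling routes, partners and targets (blue), 1 row per list and 1 point per gene, in A/A replicate 1. The dashed line is the median of all genes with reads (59.6 reads per kilobase). The ISGF3 targets lie between 7425 and 32576 reads per kilobase, while *Ikbke*, *Batf3*, *Irf2bpl* and, narrowly, *Crebbp* lie below the dashed line.

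Neighbouring and related sequence could shift reads onto or off a member, and whether counting used strand is not given in the sources used here. Exons of *Tnpo3*, on the opposite strand, overlapped 14.1% of the exon bases of *Irf5*, and *Tnpo3* itself had 136 reads per kilobase. Overlaps on the opposite strand covered 3.40% of *Irf1* (*Gm17334*, 95.9 reads per kilobase), 2.56% of *Irf3* (*Bcl2l12*, 104 reads per kilobase) and 1.19% of *Irf7* (*Phrf1*, 199 reads per kilobase). Exons of *Rnf31*, on the same strand, overlapped 2.28% of *Irf9*, and *Rnf31* had 967 reads per kilobase. *Irf2*, *Irf4* and *Irf8* overlapped no exon of another gene. Of the 50-base windows of the members' transcripts, 0% occurred in another IRF gene, so the family members do not share identical stretches of that length. Windows shared with any other gene made up 11.0% for *Irf5* and from 0% to 1.82% for the other 7 members with reads.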

How the data were processed

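RNA-Seq values of 1 library of 9, A/A replicate 1, were used. Per the labels, processing named HISAT2 and StringTie and the builds mm8 and mm10, without role. The deposited values are a normalized signal per gene. The authors' unit is not given in the sources used here. The smallest value, 1.19, divided 100% of the others into whole numbers (within 0.01 reads), and these were taken as reads. With 1 library no count test was possible, so the planned genotype comparison was not run. Identifiers matched GENCODE M21 for 99.7% of rows, and 95.2% of these had identical coordinates. Exon lengths came from that annotation. Percentiles were taken among genes with reads, ties at their midpoint. The confidence level was 95% and the floor 3 reads (0.0955 CPM). Python 3.11.15, numpy 2.4.6, pandas 2.3.3, scipy 1.17.1 and matplotlib 3.10.9 were used. Recovery of reads was tested on simulated data, 3 libraries of 52550 genes, with 100% recovered. The genes named are the members, their overlapping and neighbouring genes, and lists of signalling genes, partners, targets and cell type markers, of which each list's highest and lowest gene and known partners were named. Members and lists were chosen with earlier results of these data known. Other genes of the lists, and those of the library check, were named after their values were seen. With 1 library no likeness of pattern between genes could be measured. Alternatives were other gene lengths, other totals and other sets of ranked genes, a pseudocount of 0.1 in place of 1 on the log2 level, and, added after seeing the data, the longest protein-coding transcript. Some genes are not reported here.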

Additional observations from a re-analysis of the deposited data

How the results depend on the processing

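No paired analysis was possible because only 1 library was used. For the same reason no replicate could be left out and the planned genotype alternatives were not run. The summed level of the family was 7536 CPM. It was 8350 with the 10 genes with the most reads taken out of the total, 4203 as a share of reads per kilobase of exon (TPM-like), and 7424 with reads scaled to exon bases free of other genes. These follow from the construction of each setting. The median percentile, 97.3, was 99.1 over all rows, 96.7 over rows with at least 10 reads, 96.0 per kilobase of exon and 96.2 among protein-coding genes. The number of members at or above percentile 90 was 5 in the other settings and 7 over all rows. The order of neighbours depended on the length used. The ratio of *Irf7* to *Irf8*, 2.11, turned to 0.722 with the shortest coding transcripts, annotated at 751 and 480 bp. The ratio of *Irf5* to *Irf1*, 1.36, turned to 0.948 with the longest transcript and with the longest protein-coding transcript, a length added after seeing the data, and was 0.994 without length correction, within counting error of 1. The ratio of *Irf2* to *Irf3*, 1.07 and within counting error, was 1.17 with the longest transcript, 2.40 with the shortest coding transcript, 2.29 without length correction and 1.86 with the longest protein-coding transcript, all beyond it. Of single members, all 8 were lower as TPM-like levels over either length and higher with the 10 top genes left out, and a pseudocount of 0.1 moved none of the 8 log2 levels beyond counting error, by at most 0.057. Depth limited the low genes: *Batf3* had 48 reads and *Irf2bpl* 73.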

Other observations

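Genes with the ISRE core letters in a RefSeq promoter window were compared with the other genes over the whole library, as a description without a test. Of 10177 genes matched by symbol and with reads, 431 had the letters, and 25.1% of these were at or above percentile 90 per kilobase of exon, against 12.3% of genes without them. Their median percentiles were 69.5 and 60.3. For the GAS letters the shares were 12.1% with and 12.9% without, and for the κB site 14.9% and 12.5%.

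The protein-coding neighbours of the IRF genes ran from 0 to 5606 reads per kilobase of exon. *Cox4i1*, 62151 bp before *Irf8*, had 5606 reads per kilobase. Listed at 0 were *Il5* beside *Irf1*, *Enpp6* beside *Irf2*, *Kcp* beside *Irf5*, *Foxf1* beside *Irf8* and *Rec8*, 8007 bp from *Irf9*. *Cdhr5*, 2602 bp from *Irf7*, had 110 reads per kilobase, 301 reads in all. *Bcl2l12* and *Scaf1*, on both sides of *Irf3*, had 104 and 59.9 reads per kilobase.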
